A study of Homo sapiens with 9 samples.

Results

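The insulin-like growth factor (IGF) axis and the IGF2 mRNA-binding proteins were followed through 10 genes of 20875 measured in SW480 colorectal cancer cells with and without exogenous APC. The genes were the ligand IGF2, the receptors IGF1R and IGF2R, the binding proteins IGFBP2, IGFBP3, IGFBP4 and IGFBP6, and the RNA-binding proteins IGF2BP1, IGF2BP2 and IGF2BP3. They were chosen by name, and each is represented by its transcript with the highest total count over the 9 libraries. All 10 passed the filter on low counts.

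SW480 is an established human colorectal adenocarcinoma line whose own APC protein is truncated. Polyadenylated RNA was sequenced from the parental line (SW480), from R38.7, which carries the pEF vector alone (CONTROL), and from D2.15, which carries pEF-mycAPC (APC), with 3 libraries in each. APC is a scaffold of the complex that marks β-catenin for destruction. Every group was grown in serum with hydrocortisone and 100 U/ml insulin, itself an agonist of the insulin receptor and, at high concentration, of IGF1R. Only CONTROL and APC received G418, at 1.5 mg/ml. APC cells were plated more sparsely than the others, at relative densities of 2.0 and 3.35, and RNA was taken 72 h later. Each group was 1 line plated in triplicate, so the p-values reflect plate-to-plate spread alone. A difference between APC and the other lines cannot be told apart from one of plating density or of the single line, nor, against SW480, from one of G418. A difference between CONTROL and SW480 cannot be told apart from one of G418, of the vector or of the single line.

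IGF1 and IGF2 signal through IGF1R, a receptor tyrosine kinase that feeds the PI3K-AKT and MAPK pathways. IGF2R, also the cation-independent mannose 6-phosphate receptor, carries IGF2 to the lysosome and does not signal as a kinase. Secreted IGFBPs hold the ligands away from the receptor or release them after proteolysis. The IGF2BPs are cytoplasmic proteins that bind IGF2, MYC, ACTB and other messages and affect their stability and translation. They are abundant in the embryo, low in most adult tissues and often expressed again in carcinomas, and colorectal tumours are known for high IGF2.

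Total counts over genes ranged from 16454635 to 19355493 per library, and 14253 genes were tested. The APC message, which the counts do not split by origin, was 49.3 ± 2.46 CPM (counts scaled to library size, mean ± SD, n = 3) in SW480, 47.9 ± 1.59 in CONTROL and 145 ± 5.0 in APC. AXIN2, a target of β-catenin, was 748 ± 22.1, 571 ± 5.43 and 86.0 ± 3.36 CPM. Of 10 colon epithelial markers 6 were tested, and they did not move together: 2 were called higher and 2 lower in both APC comparisons. The keratin KRT8 averaged 2585, 2883 and 2971 CPM in SW480, CONTROL and APC, and KRT19 786, 373 and 647. EPCAM, an epithelial adhesion molecule, rose from 49.4 and 42.4 CPM to 382 in APC, and VIL1, the brush-border protein villin, from 0.304 and 0.414 to 4.62. VIL1 had 17, 23 and 243 counts over the libraries of SW480, CONTROL and APC. It passed the filter on low counts through APC, so the count of 2 higher is partly set by that filter. CDX2, an intestinal transcription factor, fell from 27.1 and 24.7 CPM to 14.9. The other gut markers CDX1, CDH17, LGALS4 and KRT20 had at most 5 counts in any library. The leukocyte gene PTPRC and the fibroblast genes COL3A1 and DCN had an RPKM of 0 throughout.

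Of the 10 genes, 7 were called lower in APC than in both SW480 and CONTROL: IGF2, IGF2R, all 4 binding proteins and IGF2BP2. IGF1R and IGF2BP3 were called higher in both, and IGF2BP1 changed little. Against SW480, 9 of 10 were called (2 higher, 7 lower) at an adjusted p under 0.05 in edgeR's quasi-likelihood test, where 72.5% of all tested genes were called, 35.6% higher and 36.9% lower. Against CONTROL, 10 of 10 were called (3 higher, 7 lower), where 70.2% of tested genes were called, 34.8% higher and 35.4% lower. Being called is therefore common in these data. Across all tested genes 27.9% were called lower in both comparisons and 27.8% higher in both. The median log2 fold change of the 10 genes was -0.64 against SW480 and -0.64 against CONTROL, and that of all tested genes was -0.01 in each. Of the 10 genes, 9 were called in the same direction in both comparisons, as were 55.8% of tested genes. None were called in opposite directions, against 2.66% of tested genes. Both comparisons share the APC libraries.

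The libraries of APC and SW480 did not overlap in any of the 10 genes (2 higher, 8 lower), where 73.1% of tested genes did not overlap, 35.9% with APC higher and 37.2% with APC lower. APC and CONTROL did not overlap in any either (3 higher, 7 lower), where the shares were 73.4%, 36.3% and 37.1%.

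**Figure D1:**
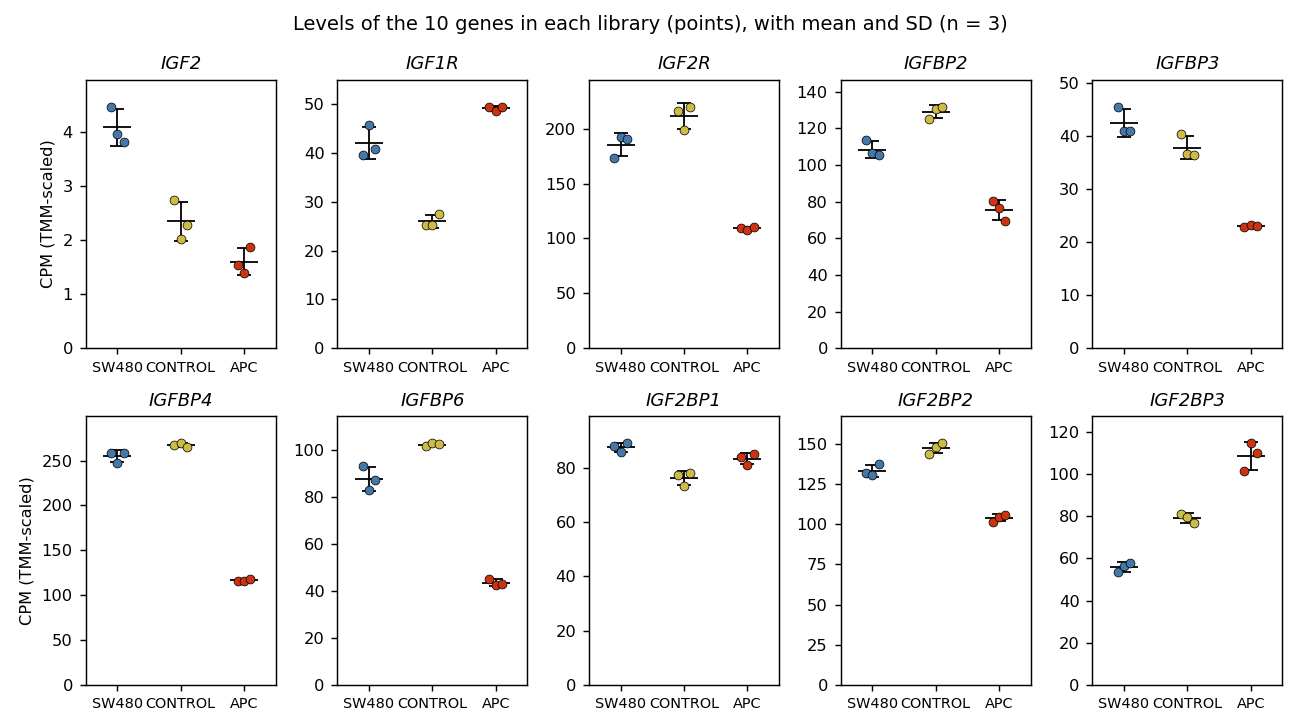
TMM-scaled CPM of the 10 genes in each of the 9 libraries (points) with the group mean and SD (bars, n = 3), each panel on its own linear axis from 0, for SW480, CONTROL and APC on the x axis. APC points lie below both other groups for IGF2, IGF2R, the 4 binding proteins and IGF2BP2, and above both for IGF1R and IGF2BP3.

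The ligand IGF2 was scarce and lowest in APC. In SW480 it stood at 4.47, 3.97 and 3.81 CPM in replicates 1 to 3, in CONTROL at 2.74, 2.03 and 2.29, and in APC at 1.54, 1.39 and 1.87. The values ran SW480, CONTROL, APC from high to low with no overlap. The log2 fold change of APC was -1.35 ± 0.18 (SE) against SW480, 2.55-fold lower (adjusted p = 4.96e-08), and -0.56 ± 0.20 against CONTROL (adjusted p = 0.015). CONTROL was itself lower than SW480 by a log2 of -0.79 ± 0.16 (adjusted p = 0.000162). These values rest on 228, 128 and 84 counts over the 3 libraries of SW480, CONTROL and APC. The call against CONTROL was lost without CONTROL replicate 1 (log2 -0.44, adjusted p = 0.0976), without APC replicate 2 (-0.46, 0.0725) and in DESeq2 (-0.56, 0.0513). On log2(RPKM + 1) the change against SW480 was -0.43, since the pseudocount exceeds the gene's level.

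The reads of IGF2 cannot be assigned to it alone. The shorter IGF2 transcripts and the noncoding INS-IGF2 readthrough transcript had the same count in every library, such as 76, 73 and 66 in SW480. Over all 9 libraries each had 407 counts, 92.5% of the 440 of the IGF2 transcript used. INS itself had 1 count over all libraries. IGF1, the other ligand, had 33, 12 and 10 counts over the 3 libraries of SW480, CONTROL and APC and was not tested.

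The receptors moved in opposite directions. IGF1R stood at 39.5, 45.8 and 40.9 CPM in SW480, 25.3, 25.2 and 27.5 in CONTROL and 49.5, 48.6 and 49.6 in APC. APC was thus the highest group, SW480 lay between and CONTROL was lowest, without overlap. The rise in APC was 1.89-fold against CONTROL (log2 0.92 ± 0.06, adjusted p = 1.88e-15) and 1.17-fold against SW480 (0.23 ± 0.06, adjusted p = 0.000536). CONTROL against SW480 differed by -0.69 ± 0.06 (adjusted p = 2.04e-11), so the size of the APC difference depends on which comparison line is used. The summed level of the 7 measured leukocyte markers had the same order, 17.8 to 19.7 CPM in SW480, 9.25 to 12.2 in CONTROL and 32.5 to 34.4 in APC. Most of that sum was CORO1A, at 13.8, 7.94 and 30.6 CPM in SW480, CONTROL and APC. The single markers were split, with 2 called higher and 2 lower in APC than in SW480, and 3 higher and 1 lower than in CONTROL. These calls are partly set by the filter on low counts. ITGAM, with 3, 2 and 54 counts over the libraries of SW480, CONTROL and APC, passed it through APC. HBA1 (149, 90 and 15 counts) passed it through SW480 and CONTROL, and LYZ (47, 15 and 14) through SW480. CD14, at 1.325, 0.643 and 1.43 CPM, and ITGAM, at 0.0537, 0.0352 and 1.03, had the order of the sum. HBA1, a globin gene, ran the other way at 2.67, 1.70 and 0.286 CPM, LYZ was 0.842, 0.270 and 0.264, and CD3E had at most 2 counts in any library. Their part in the result was not tested.

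IGF2R stood at 173, 192 and 191 CPM in SW480, 216, 198 and 220 in CONTROL and 109, 108 and 111 in APC. The 3 APC libraries lay close together and well below the other 6. The fall was 1.70-fold against SW480 (log2 -0.76 ± 0.04, adjusted p = 1.7e-16) and 1.94-fold against CONTROL (-0.96 ± 0.04, adjusted p = 3.93e-19). CONTROL was 1.14-fold above SW480 (0.19 ± 0.04, adjusted p = 0.000323). Per length, in RPKM, the ratio of IGF2R to IGF1R was 5.46 ± 0.293 in SW480, 10.1 ± 0.437 in CONTROL and 2.74 ± 0.0165 in APC (n = 3 each). INSR, the insulin receptor, whose chains can pair with those of IGF1R, was lower in APC at 11.9 ± 0.903 CPM than in SW480 at 16.6 ± 1.68 and CONTROL at 16.9 ± 1.15 (log2 -0.48 ± 0.09, adjusted p = 1.18e-05, and -0.51 ± 0.09, adjusted p = 5.34e-06).

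All 4 IGFBPs fell in APC, IGFBP4 and IGFBP6 the most. IGFBP4, which inhibits IGF action until it is cleaved, stood at 259, 248 and 259 CPM in SW480, 268, 269 and 265 in CONTROL and 116, 115 and 118 in APC. SW480 and CONTROL lay close together, and every APC library was below them by more than the spread of any group. The log2 fold change was -1.13 ± 0.04 against SW480 (2.19-fold lower, adjusted p = 6.14e-24) and -1.20 ± 0.04 against CONTROL (2.30-fold lower, adjusted p = 1.06e-24). Between CONTROL and SW480 it was 0.07 ± 0.04 and did not pass (adjusted p = 0.103).

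IGFBP6, which binds IGF2 in preference to IGF1, stood at 93.1, 82.8 and 87.0 CPM in SW480, 102, 103 and 102 in CONTROL and 45.0, 42.5 and 42.9 in APC. The APC libraries were again far below both lines, at log2 -1.01 ± 0.05 against SW480 (2.02-fold, adjusted p = 5.6e-19) and -1.23 ± 0.05 against CONTROL (2.35-fold, adjusted p = 1.57e-21). CONTROL was above SW480 by 0.22 ± 0.04 (adjusted p = 0.000106).

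IGFBP3, the main IGF carrier of serum, stood at 45.6, 41.0 and 41.0 CPM in SW480, 40.4, 36.7 and 36.5 in CONTROL and 22.9, 23.3 and 23.1 in APC. APC was lower by -0.88 ± 0.06 against SW480 (1.84-fold, adjusted p = 1.17e-14) and -0.71 ± 0.06 against CONTROL (1.64-fold, adjusted p = 4.36e-12). CONTROL and SW480 differed little, by -0.17 ± 0.06 (adjusted p = 0.0145). That call was lost without SW480 replicate 1 (-0.12, adjusted p = 0.111), without CONTROL replicate 2 (-0.15, 0.0628) or 3 (-0.14, 0.0795), and in DESeq2 (-0.17, 0.0549).

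IGFBP2, a binding protein with an integrin-binding motif, stood at 114, 106 and 105 CPM in SW480, 125, 130 and 132 in CONTROL and 80.1, 76.8 and 69.2 in APC. It had the smallest fall of the 4 against SW480, -0.53 ± 0.05 (1.44-fold, adjusted p = 1.37e-11). Against CONTROL the fall was -0.78 ± 0.05 (1.71-fold, adjusted p = 5.33e-16), and CONTROL stood above SW480 by 0.25 ± 0.05 (adjusted p = 2.59e-05).

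**Figure D2:**
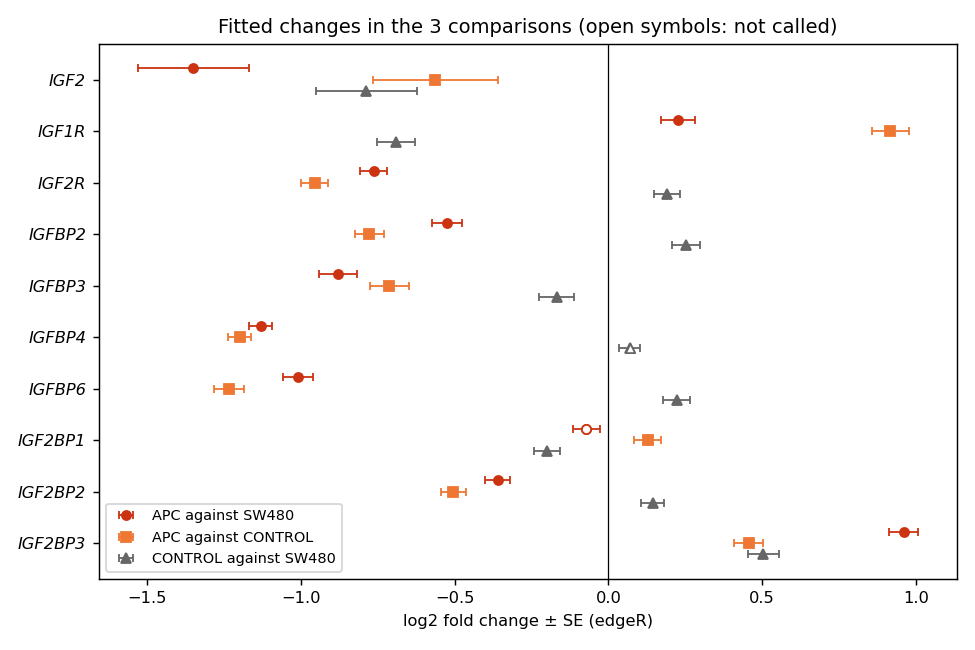
Log2 fold changes of the 10 genes in the 3 comparisons with bars of 1 SE from edgeR's quasi-likelihood fit, open symbols marking differences that were not called. In both APC comparisons IGFBP4 and IGFBP6 lie at or below -1.01, whereas CONTROL against SW480 stays between -0.79 and 0.50 for every gene.

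Summed per length, the 4 IGFBPs amounted to 265 ± 10.7 RPKM in SW480, 291 ± 0.562 in CONTROL and 139 ± 2.62 in APC. IGFBP7, a related secreted protein with weak IGF binding, fell further than any of the 4, from 269 ± 12.8 CPM in SW480 and 332 ± 10.4 in CONTROL to 27.8 ± 2.30 in APC (log2 -3.28 ± 0.05, adjusted p = 3.39e-32, and -3.58 ± 0.05, adjusted p = 2.96e-33). IGFBP5 had 40, 17 and 1 counts over the libraries of SW480, CONTROL and APC, a ratio of SW480 to APC of 37.7 with a 95% counting interval of 6.38 to 1524. The summed level of the 7 measured fibroblast markers was also lower in APC. It was 42.7 to 46.9 CPM in SW480, 36.4 to 40.6 in CONTROL and 17.1 to 17.9 in APC. CONTROL lay below SW480 in this sum but above it in the IGFBP sum. Of the 3 tested markers 2 were called lower in both APC comparisons: PDGFRB averaged 3.90, 3.17 and 0.0766 CPM and FBLN1 27.4, 23.8 and 5.12. PDGFRB had 218, 172 and 4 counts over the libraries of SW480, CONTROL and APC. It passed the filter on low counts through SW480 and CONTROL, so the count of 2 is partly set by that filter. COL1A1, which was not called, stood at 13.1 CPM in SW480 and 12.2 in APC, and LUM and THY1 had at most 1 count in any library. Each group was 1 cultured line. The part of these genes in the result was not tested, and in bulk RNA fewer expressing cells and less RNA per cell cannot be told apart.

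The IGF2BPs did not move as one. IGF2BP3, an oncofetal member of the family, stood at 53.4, 56.4 and 57.8 CPM in SW480, 81.1, 79.9 and 76.7 in CONTROL and 102, 115 and 110 in APC. The order SW480, CONTROL, APC held with no overlap. The rise in APC was 1.95-fold against SW480 (log2 0.96 ± 0.05, adjusted p = 1.55e-18) and 1.37-fold against CONTROL (0.46 ± 0.05, adjusted p = 1.73e-10). CONTROL was itself 1.42-fold above SW480 (0.50 ± 0.05, adjusted p = 2.77e-10), a difference about as large as that between APC and CONTROL.

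IGF2BP2, which is the family member most widely expressed in adult tissue, stood at 132, 131 and 138 CPM in SW480, 144, 148 and 150 in CONTROL and 102, 104 and 106 in APC. The APC libraries were lowest, with log2 -0.36 ± 0.04 against SW480 (1.28-fold, adjusted p = 8.16e-10) and -0.50 ± 0.04 against CONTROL (1.42-fold, adjusted p = 2.42e-13). CONTROL was 1.10-fold above SW480 (0.14 ± 0.04, adjusted p = 0.00241).

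IGF2BP1, which binds the coding region of MYC mRNA, stood at 87.9, 85.9 and 89.1 CPM in SW480, 77.3, 73.5 and 78.1 in CONTROL and 84.1, 81.0 and 85.1 in APC. APC was not called against SW480: the log2 difference was -0.07 ± 0.04 with a 95% interval of -0.16 to 0.01 (adjusted p = 0.136), although the libraries of the groups did not overlap. Against CONTROL it was 1.09-fold higher (0.13 ± 0.04, adjusted p = 0.0106), a call lost without CONTROL replicate 2 (0.10, adjusted p = 0.0601). CONTROL against SW480 gave -0.20 ± 0.04 (adjusted p = 0.000273).

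Per length, the 3 IGF2BPs together differed little, at 53.4 ± 1.03 RPKM in SW480, 59.8 ± 0.322 in CONTROL and 55.9 ± 2.27 in APC. Their mix differed more. IGF2BP3 made up 22.5 ± 0.586% of the sum in SW480, 28.1 ± 0.968% in CONTROL and 40.8 ± 1.34% in APC, and IGF2BP2 60.8 ± 0.371%, 59.1 ± 0.971% and 44.3 ± 0.653%. The ratio of IGF2BP3 to IGF2BP2 was 0.369 ± 0.0117 in SW480, 0.475 ± 0.0237 in CONTROL and 0.923 ± 0.044 in APC.

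**Figure D3:**
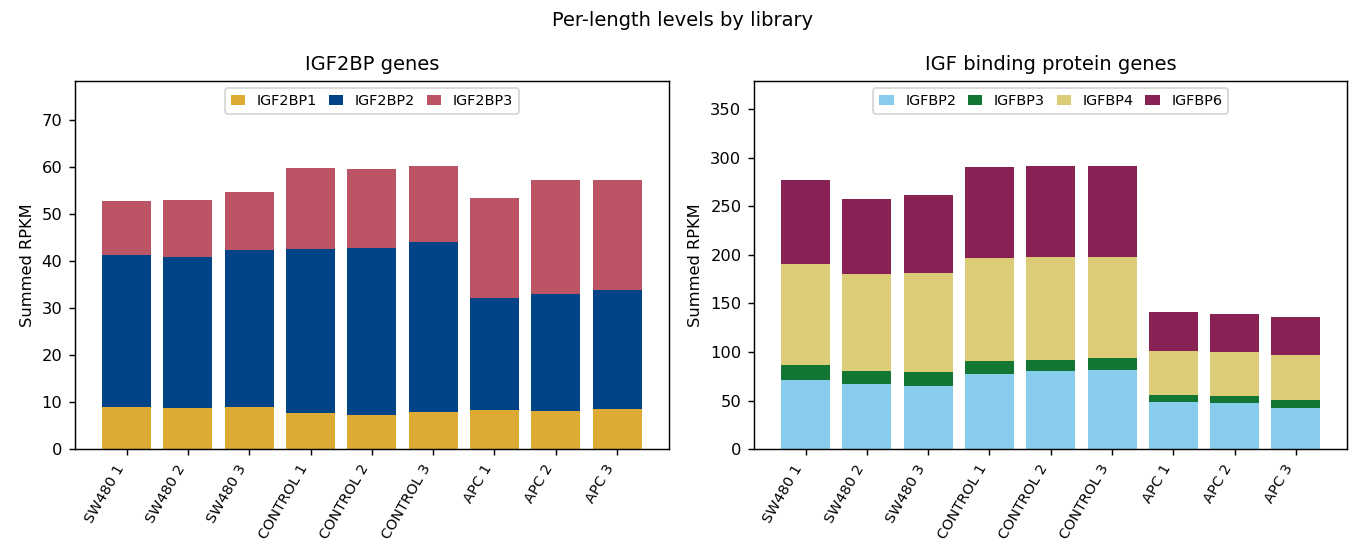
Stacked RPKM of the IGF2BPs and of the 4 IGFBPs in each library, with the libraries of SW480, CONTROL and APC along the x axis. The IGF2BP stacks have similar heights with a larger IGF2BP3 segment in APC, and the IGFBP stacks are lower in APC (139 ± 2.62 RPKM) than in SW480 and CONTROL.

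The order of the 10 genes by RPKM was led by the binding proteins in every group. SW480 ran IGFBP4 (102 RPKM), IGFBP6 (81.1), IGFBP2 (67.9), IGF2BP2 (32.5), IGF2R (18.2), IGFBP3 (14.4), IGF2BP3 (12.0), IGF2BP1 (8.93), IGF1R (3.34) and IGF2 (0.707), and no neighbours in that order overlapped between libraries. In CONTROL only IGF2BP3 (16.8 RPKM) and IGFBP3 (12.7) exchanged places, again without overlap between neighbours. In APC, IGFBP2 (46.1 RPKM) and IGFBP4 (45.5) overlapped at the top, and IGF2BP2 (24.8) and IGF2BP3 (22.9) overlapped behind IGFBP6 (39.3). IGF2 remained last at 0.271 RPKM.

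**Figure D4:**
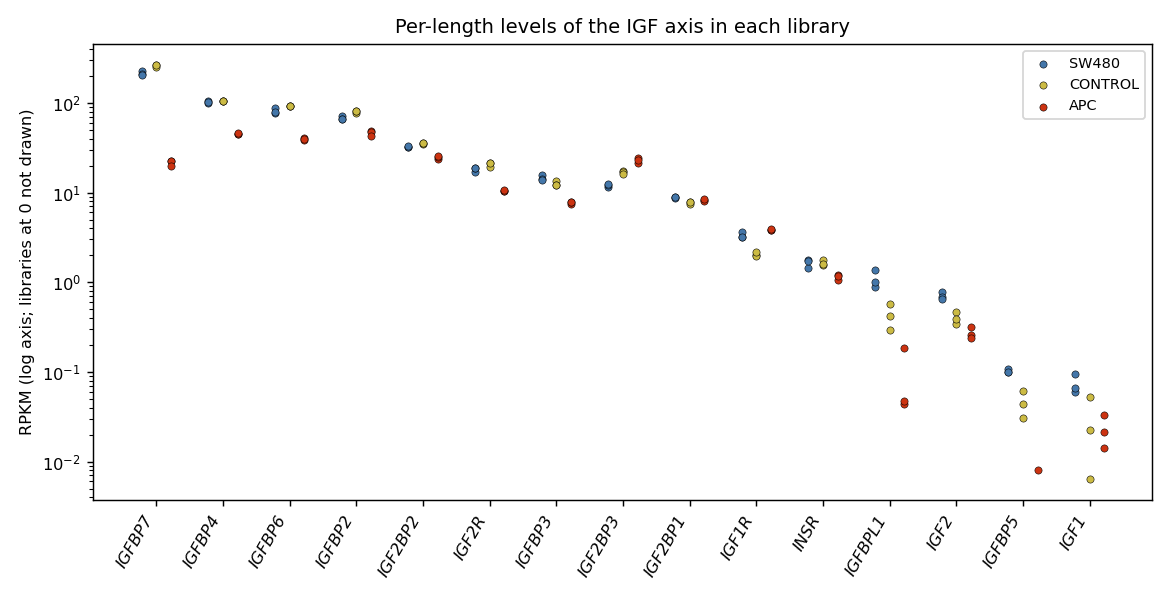
RPKM (log axis) of the 10 genes and of IGFBP7, INSR, IGFBP5, IGFBPL1 and IGF1, ordered by their SW480 mean, with 1 point per library coloured by group and libraries at 0 not drawn. IGF2BP3 points rise and IGFBP4 points fall from SW480 to APC, and IGF2 is the lowest of the 10 genes in each group.

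CONTROL against SW480 also separated most of the 10 genes. Of the 10, 9 were called (5 higher, 4 lower), where 50% of all tested genes were called, 25.3% higher and 24.7% lower. The median of the 10 log2 fold changes was 0.11, against -0.01 for all tested genes. The libraries of all 10 did not overlap, where 56.6% of tested genes did not, 28.5% with CONTROL higher and 28.2% with CONTROL lower. None of the 10 differed 2-fold here, whereas 3 did between APC and SW480 and 2 between APC and CONTROL. Over all tested genes, too, a 2-fold difference was rarer here. Between CONTROL and SW480, 94.7% of tested genes changed less than FOXO4 (2.02-fold). Between APC and SW480, 81.0% changed less than IRS2 (2.01-fold), and between APC and CONTROL 81.6% changed less than GAB1 (2.00-fold).

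The transcripts whose levels lay closest to IGF2BP3 over the 9 libraries, out of 9850 compared by centred log2 CPM, were PSME2, a proteasome activator subunit (root mean square difference 0.0432), NAMPT, an enzyme of NAD salvage (0.0478), and the kinase ZAK (0.0624). Closest to IGFBP4 were ZCRB1 (0.0342), the kinase DSTYK (0.0413) and FARP1 (0.0470).

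Promoter windows of RefSeq (GRCh38.p14, 250 bases before to 50 after each start) matched 8 of the 10 genes, and IGF2 and IGF2BP1 had none in the table. They were searched for the E-box CACGTG, the word bound by MYC and its partners, and for the TCF/LEF words, spelled CTTTGAA with the variant CTTTGAT, or CTTTGTA with the variant CTTTGTT. Both strands were read, and the letters of an E-box and a TCF/LEF word cannot overlap. The E-box stood in 7.26% of 35116 windows and a TCF/LEF word in 13.8%. IGF2R and IGF2BP3 held E-boxes, and IGFBP6 and the second window of IGF2BP2 a TCF/LEF word. Windows with 3 or more E-boxes, as in IGF2R, made up 0.094% of all, and those with 2 or more, as in IGF2BP3, 0.664%. The 3 windows below are shown because IGF2R fell and IGF2BP3 rose in APC with the same word, and because IGFBP6 holds the only TCF/LEF word among the IGFBPs. Capitals mark the words. IGF2R lies at chr6:159968832-159969131 on the + strand, with E-boxes 132, 74 and 28 bases before the start. IGF2BP3 lies at chr7:23470442-23470741 on the - strand, with E-boxes 174 and 146 bases before it. IGFBP6 lies at chr12:53097417-53097716 on the + strand, with AACAAAG 219 bases before it.
IGF2R: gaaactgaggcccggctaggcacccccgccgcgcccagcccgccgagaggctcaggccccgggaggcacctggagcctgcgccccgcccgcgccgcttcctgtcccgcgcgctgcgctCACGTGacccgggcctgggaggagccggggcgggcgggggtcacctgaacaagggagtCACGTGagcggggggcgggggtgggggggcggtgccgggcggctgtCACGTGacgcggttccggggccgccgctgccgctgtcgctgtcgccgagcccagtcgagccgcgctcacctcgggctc
IGF2BP3: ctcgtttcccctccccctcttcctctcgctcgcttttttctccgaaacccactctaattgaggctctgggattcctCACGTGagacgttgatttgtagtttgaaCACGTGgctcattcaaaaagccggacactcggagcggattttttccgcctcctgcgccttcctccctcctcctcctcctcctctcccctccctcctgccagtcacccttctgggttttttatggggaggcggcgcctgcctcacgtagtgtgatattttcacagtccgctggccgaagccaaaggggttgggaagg
IGFBP6: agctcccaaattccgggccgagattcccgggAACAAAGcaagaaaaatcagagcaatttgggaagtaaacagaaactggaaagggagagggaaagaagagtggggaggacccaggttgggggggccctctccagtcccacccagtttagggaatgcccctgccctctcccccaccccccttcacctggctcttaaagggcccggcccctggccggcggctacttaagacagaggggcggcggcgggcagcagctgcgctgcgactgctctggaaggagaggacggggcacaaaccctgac

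The IGF2BPs are textbook targets of the let-7 family of microRNAs, which were not measured here. The mature let-7a-5p of RefSeq is shown with its seed, bases 2 to 8, in capitals, and 9 family names share that seed. Below it are the matches to the seed, CTACCTC in capitals, in the 3′ UTRs of the GENCODE 29 transcripts (GRCh38) of the 3 IGF2BPs, shown because the family did not move as one.
let-7a-5p: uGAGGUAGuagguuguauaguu
IGF2BP1 site 1: tgtgtgcgaagtaaaCTACCTCa
IGF2BP1 site 2: cagcagtgctagtaaCTACCTCa
IGF2BP1 site 3: gtataaatggattaaCTACCTCa
IGF2BP1 site 4: tcacttttgttttatCTACCTCt
IGF2BP2 site: aacacacagaagaagCTACCTCa
IGF2BP3 site: tgcatttttactcaaCTACCTCa

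IGF2BP1 held 4 matches in a 3′ UTR of 6206 bases, and 0.417% of 3′ UTRs within 20% of that length held as many. IGF2BP2 and IGF2BP3 each held 1 in 1792 and 2153 bases, where 11% and 12% of like-length UTRs held at least 1. IGF1R held 2 in 7088 bases, where 6.86% of like-length UTRs held at least as many, and IGF2R 1 in 6420 bases, where 29.8% held at least 1. In the LIN28 and let-7 pathway, 2 of 10 tested genes were called higher and 1 lower in both APC comparisons, beside 27.8% and 27.9% of all tested genes. The median log2 fold changes were -0.04 and 0.03. The lower gene, TRIM71, had 45, 18 and 3 counts over the libraries of SW480, CONTROL and APC. It passed the filter on low counts through the other lines, so that count is partly set by the filter. The higher genes were DICER1, which cuts microRNA precursors (127 ± 2.71 CPM in APC, 96.7 ± 6.02 in SW480 and 98.0 ± 3.44 in CONTROL), and EIF2C2, the Argonaute that carries them (20.5 ± 2.05, 14.7 ± 1.54 and 14.8 ± 1.05). HMGA2, the let-7 target with the highest RPKM of the list, averaged 68.0 ± 1.71 CPM in APC, 69.9 ± 1.86 in SW480 and 58.8 ± 1.22 in CONTROL.

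Of 11 other ligands, receptors and binding proteins, 5 were tested, and each was called lower in both APC comparisons. IGFBP7 and INSR are described above, and INS-IGF2 shares its reads with IGF2. IGFBP5 and IGFBPL1 (74, 29 and 6 counts in SW480, CONTROL and APC) were near the limit of detection in APC and passed the filter on low counts through the other libraries, so the count of 5 is partly set by that filter. Among IGFBP proteases and their inhibitors, 2 of 6 tested genes were higher and 2 lower in both, with medians of 0.31 and -0.74. Of all tested genes 27.8% were higher and 27.9% lower in both, and the medians were -0.01. The lower genes were HTRA1, given below, and KLK3. KLK3 had only 30, 31 and 12 counts over the libraries of SW480, CONTROL and APC, and its APC and CONTROL libraries overlapped. STC2, which inhibits the IGFBP4 protease PAPPA, rose from 61.3 ± 2.03 CPM in SW480 and 107 ± 2.28 in CONTROL to 236 ± 8.07 in APC (log2 1.94 ± 0.04, adjusted p = 3.05e-29, and 1.13 ± 0.04, adjusted p = 3.89e-23). CTSD, a lysosomal protease, rose to 365 ± 17.8 CPM from 169 ± 12.4 and 164 ± 6.85 (1.11 ± 0.05 and 1.16 ± 0.05). PAPPA, named after its values were seen, was 12.7 ± 0.936 CPM in CONTROL against 1.58 ± 0.114 in SW480 and 1.33 ± 0.387 in APC. CONTROL thus stood 8.07-fold above SW480 (adjusted p = 3.41e-18), and APC was not called against SW480 (adjusted p = 0.355).

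Of 35 tested receptor adaptors and PI3K-AKT signalling genes, 9 were higher and 12 lower in both APC comparisons, near the 27.8% and 27.9% of all tested genes, and the medians were -0.02 and -0.01. GRB2, the adaptor that links receptors to RAS, was higher in APC (log2 0.52 ± 0.04 against SW480 and 0.58 ± 0.04 against CONTROL), as were the mTORC1 subunit RPTOR (0.60 ± 0.05 and 0.64 ± 0.05) and the kinase AKT2 (0.41 ± 0.04 and 0.56 ± 0.04). The adaptor SHC1 was lower (-0.62 ± 0.04 and -0.78 ± 0.04), as were RHEB, the GTPase that activates mTORC1 (-0.36 ± 0.04 and -0.73 ± 0.04), and the phosphatase INPPL1 (-0.58 ± 0.04 and -0.36 ± 0.04). Of the main receptor substrates, IRS2 fell to 21.1 ± 1.23 CPM in APC from 42.3 ± 4.74 in SW480 and 30.9 ± 0.58 in CONTROL (adjusted p = 2.59e-14 and 5.2e-08). IRS1 was not called, at 34.1 ± 3.52 against 31.9 ± 1.59 and 36.5 ± 0.447 CPM (adjusted p = 0.178 and 0.156).

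Among transcripts reported as bound by IGF2BP proteins, 8 of 17 tested genes were higher and 5 lower in both APC comparisons, with medians of 0.15 and 0.18, beside 27.8% higher and 27.9% lower of all tested genes. CCND2, a D-type cyclin, rose from 3.78 ± 0.642 CPM in SW480 and 4.91 ± 0.379 in CONTROL to 90.3 ± 4.28 in APC (23.9-fold and 18.3-fold, adjusted p = 8.22e-32 and 3.45e-31). MYC rose from 118 ± 2.38 and 147 ± 5.62 to 283 ± 2.75 CPM, and CD44, a hyaluronan receptor, from 177 ± 6.67 and 232 ± 4.91 to 344 ± 8.03. CCND1 fell by a log2 of 1.76 ± 0.04 against SW480 and 1.42 ± 0.04 against CONTROL, and CTNNB1, the gene of β-catenin, by 1.65 ± 0.04 and 1.13 ± 0.04. ACTB, the β-actin message, was lower by -0.42 ± 0.04 and -0.44 ± 0.04. GLI1, also among the 5 lower genes, had 39, 52 and 20 counts over the libraries of SW480, CONTROL and APC. It passed the filter on low counts through the other lines, so the count of 5 is partly set by that filter.

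The list around the N6-methyladenosine mark, which IGF2BPs also read, held 18 tested genes. They were writers, erasers, readers and other RNA-binding proteins such as MATR3. Of these, 3 were higher and 3 lower in both APC comparisons, beside 27.8% and 27.9% of all tested genes. WTAP (log2 0.45 ± 0.05 against SW480 and 0.38 ± 0.05 against CONTROL), ZC3H13 (0.26 ± 0.05 and 0.47 ± 0.05) and YTHDF1 (0.23 ± 0.04 and 0.46 ± 0.04) were higher. HNRNPA2B1 (-0.18 ± 0.04 and -0.28 ± 0.04), RBM15B (-0.55 ± 0.05 and -0.15 ± 0.05) and MATR3 (-0.09 ± 0.04 and -0.20 ± 0.04) were lower. For MATR3 the libraries of APC and SW480 overlapped.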

How the data were processed

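Polyadenylated RNA from 9 libraries (SW480, CONTROL and APC, 3 each) was prepared with a TruSeq kit, per the labels. The deposited table gives raw read counts for 39276 RefSeq transcripts of 20875 genes. The deposited RPKM values were these counts divided by length and by a library constant, which held for 100% of the transcripts (relative difference up to 0.0001), and the authors' transcript length is in bases. The tools were Trimmomatic, TopHat and GATK on hg19, per the submitters' processing notes, while the annotation release and the counting tool were not given in the sources used here. A read could be counted for several transcripts of a gene, so 1 transcript per gene was used. Of 65 transcripts whose gene names had become dates, 62 were repaired and the others dropped.

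Differences were tested by edgeR 4.0.16 under R 4.3.3 (TMM, filterByExpr, robust quasi-likelihood fit of all 9 libraries, Benjamini-Hochberg adjustment, threshold 0.05). SE is the log2 fold change over the square root of F. CPM is TMM-scaled. The biological coefficient of variation was 3.56%. Ratios of low counts carry a 95% counting interval. With 3 libraries a side, an exact permutation p cannot fall below 0.1. Replicates differed by more than sampling noise (chi-square per degree of freedom 1.344 to 5.381). On simulated data with 200 of 14253 genes changed, edgeR recovered 99%, 98% and 94% at 2-fold for APC against SW480, APC against CONTROL and CONTROL against SW480. At 1.5-fold it recovered 75%, 83% and 87%, with 4, 11 and 10 unchanged genes called and none in the wrong direction. The simulation used an assumed spread and changed far fewer genes than were called in the data, so these rates may not hold here. Alternatives used DESeq2 1.42.0, limma 3.58.1 and other settings.

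The members and gene lists were chosen with earlier results of these data known. Beside the 10 genes and 5 fixed pathway genes, each list was represented by up to 3 genes per direction called alike in both APC comparisons with a mean of at least 10 CPM in the highest group, ranked by adjusted p, and its gene with the highest RPKM.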

Additional observations from a re-analysis of the deposited data

How the results depend on the processing

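Of the 10 genes, 9 were called in APC against SW480, 10 in APC against CONTROL and 9 in CONTROL against SW480. These counts did not move with RLE size factors, with every gene kept, with transcripts of a gene summed, with limma on RPKM (pseudocounts 1 and 0.1) or with fits of 6 libraries. DESeq2 called 9, 9 and 8. Leaving out each replicate in turn gave 9 throughout for APC against SW480, 9 to 10 for APC against CONTROL and 8 to 9 for CONTROL against SW480. For single genes, 502 log2 fold changes under alternatives kept their direction and their side of the threshold, 8 lost the call and 0 reversed. The lost calls belong to IGF2, IGFBP3 and IGF2BP1 and are given beside those genes. With the pseudocount of 1, IGF2 also stood at -0.29 in CONTROL against SW480 and -0.14 in APC against CONTROL. Without APC replicate 2, IGF2BP1 stood at -0.04 against SW480.

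Same-numbered libraries correlated at -0.0686 to 0.1061 in their deviations from the group mean, so the numbers were not taken as pairs. With a replicate block, 9, 10 and 9 of the 10 genes were called. Depth limits IGF2 the most, with 24 to 83 counts per library.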

Other observations

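Other proteases reported to act on IGFBPs also differed, and both genes were named after their values were seen. HTRA1, a secreted serine protease, was 9.54 ± 0.368 CPM in SW480, 8.65 ± 0.213 in CONTROL and 2.45 ± 0.0732 in APC (n = 3 each). The APC libraries were 3.88-fold lower than SW480 and 3.52-fold lower than CONTROL in edgeR (adjusted p = 8.99e-16 and 1.29e-14). PRSS23, another serine protease, was 70.0 ± 4.70, 144 ± 3.78 and 127 ± 2.91 CPM. It was called higher in APC than in SW480 (0.85 ± 0.05, adjusted p = 5.74e-18) and lower than in CONTROL (-0.19 ± 0.04, adjusted p = 0.000214).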
